A study of Mus musculus with 4 samples.

Results

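The 10 genes described here encode the main sensors of DNA and RNA in mouse cells and the adaptors that carry their signal: Mb21d1 (cGAS), Tmem173 (STING), Tbk1, Ddx58 (RIG-I), Ifih1 (MDA5), Mavs, Tlr3, Tlr7, Tlr9 and Zbp1. They were taken by name from the 31053 genes of the count matrices, as a set defined by function at a time when earlier results of these data were known, and all 10 were present. The matrices came from droplet single-cell RNA sequencing of lung cells of Balb/c mice injected intravenously with 4T1, a mammary carcinoma line of mouse origin that colonises the lung. In the PD-L1 KO group (2 libraries) the injected 4T1 cells lacked PD-L1, which restrains T cells through the receptor PD-1, and in the WT group (2 libraries) they were the unmodified 4T1.WT line. Lungs of both groups were perfused and collected at 14 days, digested with collagenase and enriched for the pan-leukocyte surface protein CD45 on magnetic beads. The knockout was a property of the injected carcinoma cells, and the labels name no genetic change in the mice whose leukocytes were sequenced. The labels do not say whether the knockout line was 1 clone or whether each library came from 1 mouse, so the p-values measure the spread between libraries, which may be technical. In both groups the file names of the deposit contradicted the sample labels, giving the other condition. The labels were followed, and all directions below depend on that.

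cGAS binds DNA in the cytosol and makes a cyclic dinucleotide that activates STING on internal membranes, and STING then engages the kinase TBK1, which phosphorylates the transcription factor IRF3 and so switches on type I interferon genes. RIG-I and MDA5 bind unusual RNA in the cytosol and reach the same kinase through MAVS on the mitochondrion, while TLR3, TLR7 and TLR9 read double-stranded RNA, single-stranded RNA and CpG-rich DNA inside endosomes. ZBP1 binds nucleic acid in the Z form and can start cell death through the kinase RIPK3. Ddx58, Ifih1 and Zbp1 are also known as interferon-induced genes, and in mice TLR7 and TLR9 are best known from plasmacytoid dendritic cells and B cells, and TLR3 from the cross-presenting dendritic cells that bear XCR1.

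Interferon induction acts on promoters through the interferon-stimulated response element, and the promoters of the set were therefore read for its core (GAAA, then 2 bases of any kind, then GAAA) on either strand. RefSeq promoter windows (GRCm38.p6, 250 bases before to 50 bases after the start of transcription) were available for 7 of the 10 genes: Mb21d1 (as Cgas), Ddx58, Ifih1, Mavs, Tbk1, Tlr3 and Tlr9. There was no entry for Tmem173, Tlr7 or Zbp1. Windows of 2 genes, Ddx58 and Ifih1, held the core, 1 match each, against 1131 of all 32851 windows (3.44%). In Ddx58 the match began at position 3 after the start and read as the core's reverse complement, and in Ifih1 it began at position 33. The 30 bases around each match are shown on the strand of the gene with the match in capitals, followed by the 250 bases upstream of each start. The capitals mark letters that match the core and do not show that a factor binds there.
Ddx58 match, chr4:40239804-40239833, minus strand: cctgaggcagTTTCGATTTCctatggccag
Ifih1 match, chr2:62646206-62646235, minus strand: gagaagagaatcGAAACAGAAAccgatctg
Ddx58 upstream, chr4:40239826-40240075, minus strand: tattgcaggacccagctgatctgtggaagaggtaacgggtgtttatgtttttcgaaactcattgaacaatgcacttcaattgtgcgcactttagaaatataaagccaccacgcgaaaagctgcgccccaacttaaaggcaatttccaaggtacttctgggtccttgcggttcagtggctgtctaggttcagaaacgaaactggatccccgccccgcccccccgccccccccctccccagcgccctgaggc
Ifih1 upstream, chr2:62646256-62646505, minus strand: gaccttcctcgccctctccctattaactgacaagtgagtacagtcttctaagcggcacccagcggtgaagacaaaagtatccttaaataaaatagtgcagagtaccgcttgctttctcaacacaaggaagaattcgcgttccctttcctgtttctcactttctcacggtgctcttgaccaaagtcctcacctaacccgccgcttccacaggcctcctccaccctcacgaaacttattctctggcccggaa

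The libraries held 2370 to 2577 barcodes in the PD-L1 KO group and 2699 to 2736 in the WT group, with 17618220 to 19635983 UMIs (unique molecular identifiers, 1 per captured RNA molecule) in any library, and 9040 of 10382 barcodes were kept as cells. Median UMIs per kept cell were 5106 and 5512 in the PD-L1 KO libraries and 4386 and 4614 in the WT libraries. Cells were grouped into classes by marker genes, and levels are given as CPM, the usual scaling of a gene's UMIs to the sum of all UMIs in the cells of a class in a library. The markers named for each class were highest in that class for 10 of 10 neutrophil, T cell and alveolar macrophage markers, 8 of 8 B cell and plasmacytoid dendritic markers, 7 of 8 NK markers, 11 of 13 monocyte/macrophage markers and 9 of 11 dendritic markers. The classes were named from these same lists, so these counts do not test the names. Clusters that stayed without a name held 19.4% of kept cells. WT library 2 stood apart in its makeup, with 237 endothelial cells against 81 to 111 in the other libraries. The 9 endothelial markers together stood at 1425 and 1321 CPM over all kept cells of the PD-L1 KO libraries, and at 1316 and 3280 CPM in WT libraries 1 and 2. Cd274, the gene of PD-L1 that the injected cells were edited in, stood at 46.9 and 38.7 CPM in PD-L1 KO and at 30.3 and 22.9 CPM in WT libraries. Host leukocytes express Cd274 too, and a count of 3′ tags need not fall in edited cells, so these values do not check the labels.

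By edgeR's test no sensor or adaptor passed between the groups over all kept cells or in any class, while DESeq2 called Zbp1 in dendritic cells and in monocyte/macrophages. Of the genes of the set, 5 of the 9 that could be tested over all kept cells lay higher in both PD-L1 KO libraries than in both WT libraries. Those 5 were Zbp1, Ifih1, Mb21d1, Tmem173 and Ddx58, set against 15.2% of all 13976 genes tested that lay above in the same way. Mavs and Tbk1 lay below in both PD-L1 KO libraries, as did 26.2% of all genes, and Tlr3 and Tlr7 overlapped between the groups. The median log2 difference of the 9 genes, PD-L1 KO minus WT, was 0.32, against -0.02 over all genes tested. By edgeR's quasi-likelihood test with Benjamini-Hochberg adjustment over all genes, 0 of 9 members and 0 genes of any kind (0% in either direction) passed an adjusted p of 0.05, with 4 members (Ddx58, Ifih1, Mb21d1 and Zbp1) and 531 genes at an unadjusted p under 0.05. DESeq2 called 0 members, with 3 at an unadjusted p under 0.05. With each library left out in turn, the log2 differences of Zbp1 ran from 0.74 to 1.41 and of Tmem173 from 0.18 to 0.86. Those of Mb21d1 ran from 0.49 to 0.78 and of Ifih1 from 0.48 to 0.74. In sums over all cells, a different mix of cell classes and a different level per cell cannot be told apart.

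**Figure D1:**
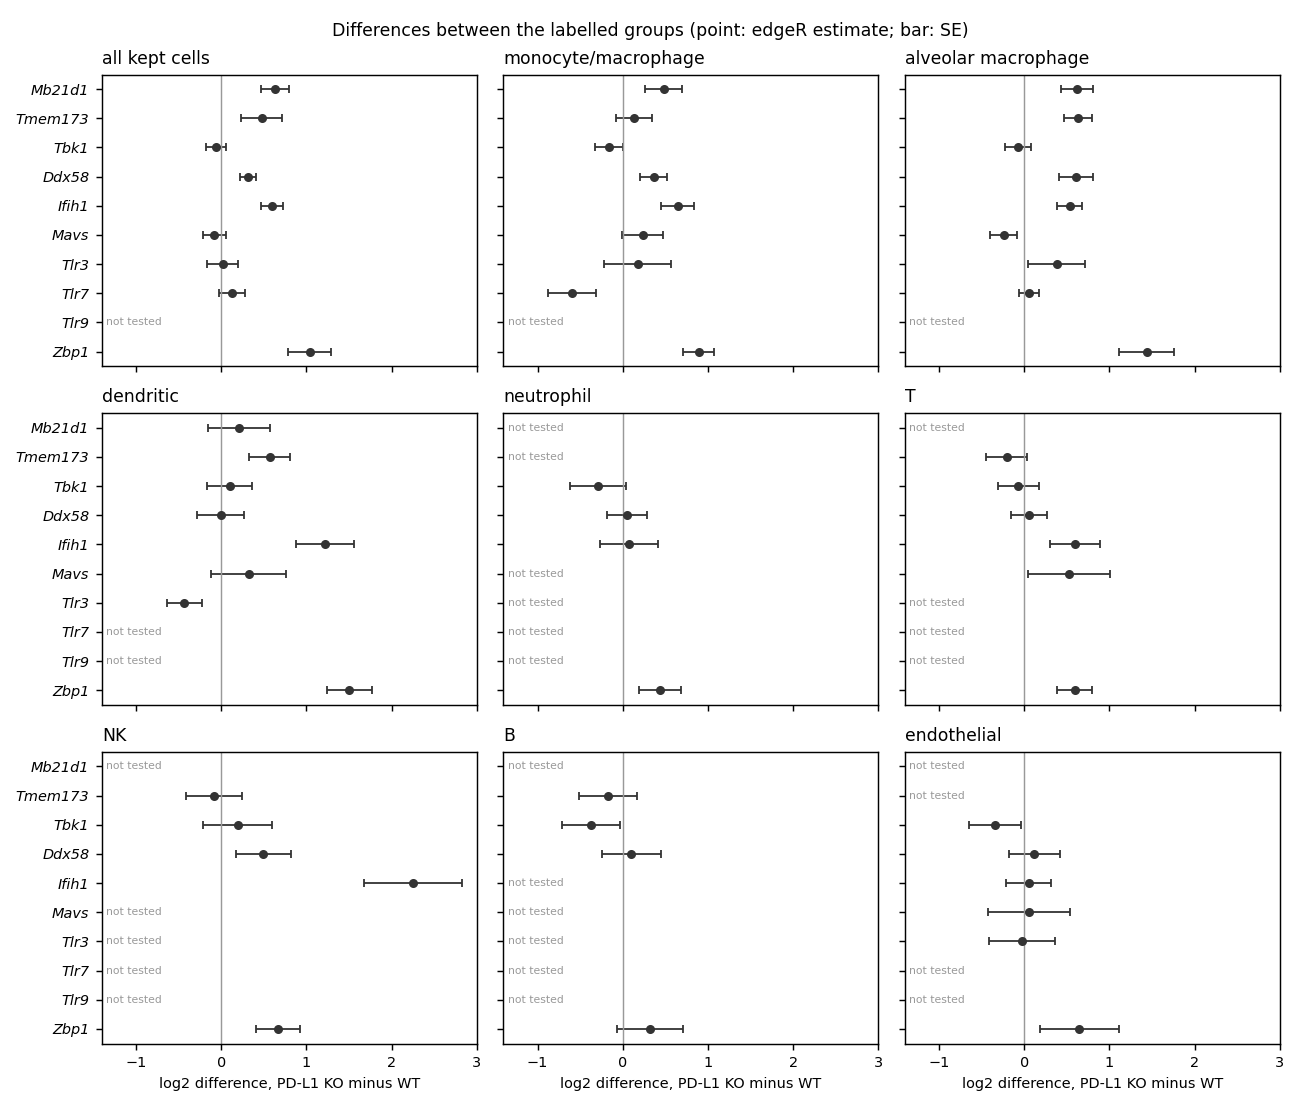
Log2 difference between PD-L1 KO and WT libraries (x axis; positive is higher in PD-L1 KO) for each sensor or adaptor (y axis) in the sum over all kept cells and in 8 cell classes; points are edgeR estimates and bars their standard errors. Zbp1 is right of 0 in all 9 panels, with its farthest point at 1.5 in dendritic cells, and the point farthest right is Ifih1 in NK cells at 2.25; none passed the test.

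**Figure D2:**
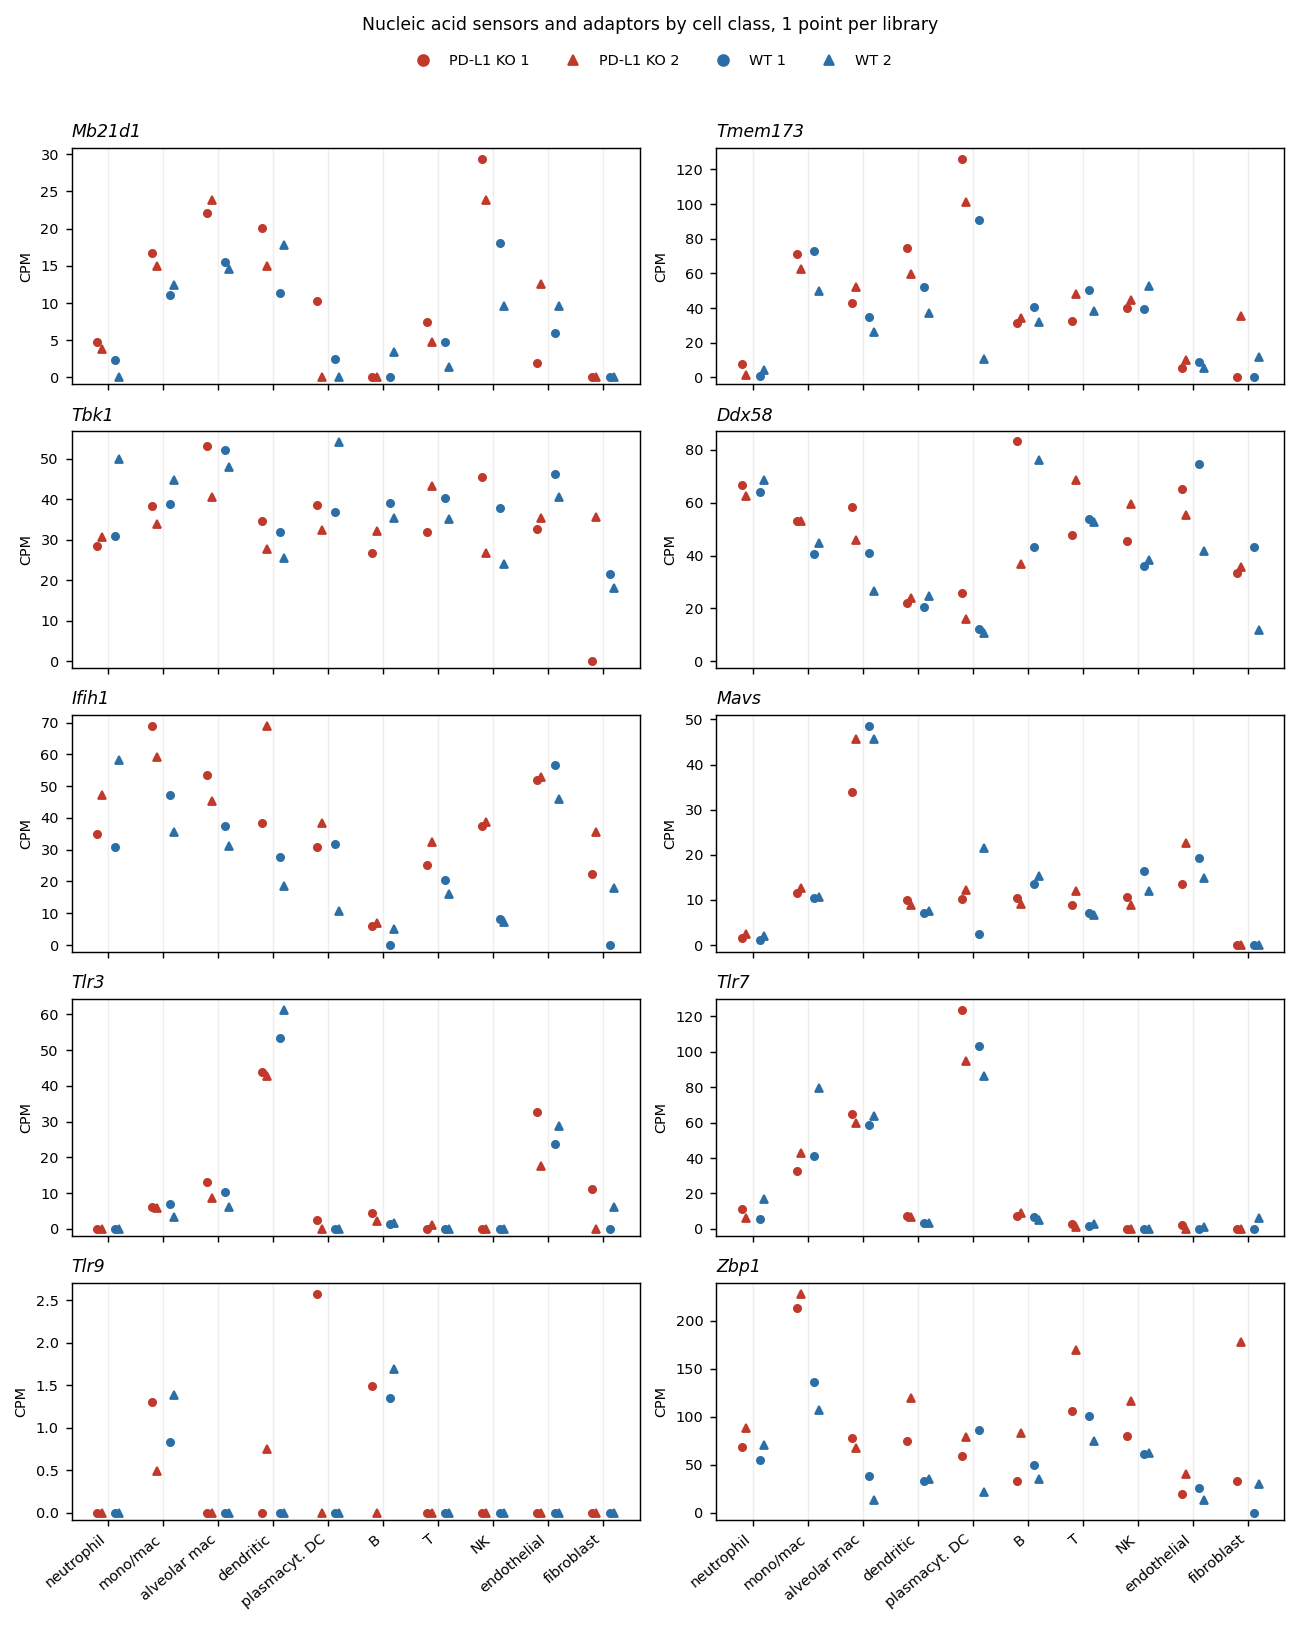
CPM of each gene (y axis, a separate linear scale per gene) in the 10 cell classes (x axis), with 1 point per library and PD-L1 KO libraries left of WT libraries in each class. Tlr3 stands highest in dendritic cells, Tlr7 in plasmacytoid dendritic cells and Mavs in alveolar macrophages, while Tbk1 is spread over all classes.

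Mb21d1 (chromosome 9, 78430526 to 78443237, minus strand; positions here and below are those of protein-coding genes in GENCODE M21, GRCm38) is the gene of the DNA sensor cGAS. It had its highest mean levels in NK cells (20.2 CPM ± 8.46, SD, n = 4 libraries) and alveolar macrophages (19.0 ± 4.62), whose ranges overlapped. Dendritic cells (16.0 ± 3.78) and monocyte/macrophages (13.8 ± 2.52) came next, again within the spread of their neighbours. B cells had 2 UMIs in all and fibroblasts 0, which allows up to 9.07 CPM at 3 counts. Within alveolar macrophages the dividing cells of cluster 28, led by Mki67, held 66.5 and 44.1 CPM in PD-L1 KO and 54.1 and 48.7 CPM in WT libraries. The other alveolar macrophages, in cluster 0, held 15.7 and 21.7 CPM in PD-L1 KO and 12.2 and 11.6 CPM in WT libraries. The higher level in cluster 28 was thus present in all 4 libraries; this pair of clusters was singled out after its values were seen. Mb21d1 summed over all kept cells stood at 13.9 and 15.3 CPM in PD-L1 KO and at 10.5 and 9.23 CPM in WT libraries, with no overlap (log2 difference 0.63, SE 0.16, edgeR adjusted p = 0.762).

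Tmem173, the gene of the adaptor STING (chromosome 18, 35733679 to 35740554, minus strand), was carried by most leukocyte classes and hardly by neutrophils. Mean levels were highest in plasmacytoid dendritic cells (82.2 CPM ± 49.9, SD, n = 4), monocyte/macrophages (64.1 ± 10.5) and dendritic cells (56.1 ± 15.5), with overlapping ranges. The lymphocytes followed with 44.2 ± 6.14 in NK, 42.3 ± 8.37 in T and 34.5 ± 4.12 in B cells. Endothelial cells (7.53 ± 2.34) and neutrophils (3.62 ± 3.18, from 9 UMIs in 1398 cells) lay lowest. The neutrophil range, 1.14 to 7.91 CPM, lay below every library's value in B, T and NK cells, monocyte/macrophages and dendritic cells. The high mean in plasmacytoid dendritic cells rested on 3 libraries, as the class stood at 126 and 101 CPM in PD-L1 KO and at 90.8 and 10.8 CPM in WT libraries, where WT library 2 held 13 such cells and 1 UMI. Singled out after the values were seen, the Cd300e-led cluster 18 of monocyte/macrophages held 12.7 and 9.01 CPM of Tmem173 in PD-L1 KO and 48.1 and 39.2 CPM in WT libraries, from 19 UMIs in all. The larger unnamed cluster 9, with Cd300e also among its leading genes, is not part of these values. Over all kept cells the gene stood at 48.1 and 48.0 CPM in PD-L1 KO and at 43.0 and 28.7 CPM in WT libraries (log2 difference 0.47, SE 0.24, edgeR adjusted p = 0.762). This difference was 0.86 without WT library 1 and 0.18 without WT library 2.

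Tbk1 (chromosome 10, 121546455 to 121586787, minus strand), the kinase on which both cytosolic arms converge, had the most even spread. Class means ran from 48.4 CPM ± 5.77 (SD, n = 4) in alveolar macrophages to 29.9 ± 4.10 in dendritic cells and 18.8 ± 14.6 in fibroblasts, and every class overlapped its neighbour in the order. Tbk1 summed over all kept cells stood at 37.6 and 33.7 CPM in PD-L1 KO and at 39.6 and 37.7 CPM in WT libraries (log2 difference -0.06, SE 0.12, edgeR adjusted p = 0.888), with the sign turned without PD-L1 KO library 2 (0.0082) or WT library 1 (0.04).

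Ddx58 and Ifih1, the RNA helicases RIG-I and MDA5, differed in which classes stood highest and lowest. For Ddx58 (chromosome 4, 40203773 to 40239828, minus strand) neutrophils had the highest mean, 65.4 CPM ± 2.73 (SD, n = 4), then B cells (59.8 ± 23.3), endothelial cells (59.2 ± 14.1) and T cells (55.6 ± 8.94). Dendritic cells (22.8 ± 1.88) and plasmacytoid dendritic cells (16.2 ± 6.73) were lowest, and the dendritic range, 20.6 to 24.7 CPM, did not reach that of neutrophils. For Ifih1 (chromosome 2, 62595798 to 62646255, minus strand) monocyte/macrophages (52.8 ± 14.4) and endothelial cells (51.8 ± 4.43) had the highest means and B cells the lowest, 4.47 ± 3.07 from 10 UMIs in 665 cells. By mean, then, B cells had rank 2 for Ddx58 and rank 10 for Ifih1. For Ddx58 the B cell range, 36.7 to 83.3 CPM, overlapped those of neutrophils, endothelial cells, T cells and monocyte/macrophages. The endothelial level of Ifih1 was 45.9 CPM or more in all 4 libraries.

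Over all kept cells Ifih1 stood at 47.7 and 47.8 CPM in PD-L1 KO and at 34.7 and 31.1 CPM in WT libraries (log2 difference 0.60, SE 0.13, edgeR adjusted p = 0.762). Ddx58 stood at 53.4 and 50.9 CPM in PD-L1 KO and at 43.1 and 44.3 CPM in WT libraries (log2 difference 0.32, SE 0.10, edgeR adjusted p = 0.762). Both differences were positive without each library in turn, with ranges of 0.48 to 0.74 for Ifih1 and 0.29 to 0.35 for Ddx58. Over leukocyte classes alone, without endothelial and other non-leukocytes, the Ifih1 difference was 0.78 (SE 0.13, edgeR adjusted p = 0.107).

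Mavs (chromosome 2, 131234063 to 131248025, plus strand), the mitochondrial adaptor of both helicases, marked alveolar macrophages. These held 43.5 CPM ± 6.51 (SD, n = 4), and their lowest library, 33.9 CPM, lay above the highest of endothelial cells, the next class, with a mean of 17.6 ± 4.21. Neutrophils held 1.84 ± 0.609 CPM from 5 UMIs in all, while fibroblasts had 0. Neutrophils thus had the highest mean of any class for Ddx58 and the second lowest for Mavs. Mavs summed over all kept cells stood at 14.7 and 16.6 CPM in PD-L1 KO and at 17.4 and 17.1 CPM in WT libraries (log2 difference -0.08, SE 0.13, edgeR adjusted p = 0.862), with the sign turned without PD-L1 KO library 1 (0.01).

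Tlr3 (chromosome 8, 45395665 to 45411080, minus strand), the endosomal receptor of double-stranded RNA, had its highest levels among the classes in dendritic and endothelial cells. These held 229 and 67 of its 771 UMIs, so most of its molecules lay in other cells. Dendritic cells held 50.3 CPM ± 8.78 (SD, n = 4) and endothelial cells 25.7 ± 6.50, with no overlap between them, and alveolar macrophages came next at 9.59 ± 2.90. NK cells and neutrophils had 0 UMIs in all libraries, which allows up to 1.73 and 1.08 CPM at 3 counts over the class. Most Tlr3 UMIs of the class came from cluster 17, led by Xcr1, which held 98.6 and 114.7 CPM in PD-L1 KO and 93.6 and 105.1 CPM in WT libraries. In cluster 17 the basophil and mast cell markers reached a scaled level of 0.892, against 0.443 for the dendritic markers, but fewer than 3 of them were detected in 25% of its cells, and Xcr1 and Clec9a were among its leading genes. The Cd209a cluster 22 held 8.6 and 3.6 CPM in PD-L1 KO and 11.8 and 5.3 CPM in WT libraries, and the Ccl22 cluster 26 had 1 UMI of Tlr3 in all. Summed over the class, Tlr3 was lower in both PD-L1 KO libraries, at 43.8 and 42.6 CPM, than in WT libraries, at 53.5 and 61.2 CPM (log2 difference -0.43, SE 0.20, edgeR adjusted p = 0.733). Cluster 17 held 36 and 33 cells in PD-L1 KO and 43 and 53 cells in WT libraries, and within it the groups overlapped. Over all kept cells Tlr3 stood at 11.2 and 10.5 CPM in PD-L1 KO and at 9.36 and 13.1 CPM in WT libraries (log2 difference 0.02, SE 0.18, edgeR adjusted p = 0.980). The mean CPM was lower in PD-L1 KO while the TMM-scaled difference was above 0, and its sign turned without PD-L1 KO library 1 (-0.02) or WT library 1 (-0.16) and over leukocyte classes alone (-0.02).

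Tlr7 (chromosome X, 167304929 to 167330558, minus strand), the receptor of single-stranded RNA, stood highest in plasmacytoid dendritic cells at 102 CPM ± 15.9 (SD, n = 4). Their lowest library, 86.5 CPM, was above the highest of alveolar macrophages, which held 61.8 ± 3.09. Monocyte/macrophages came next at 49.0 ± 20.9, and NK cells had 0 UMIs, which allows up to 1.73 CPM. Among monocyte/macrophages, cluster 18, led by Cd300e and Eno3, held 120.9 and 90.1 CPM in PD-L1 KO and 132.3 and 156.9 CPM in WT libraries. Both PD-L1 KO libraries thus lay below, and the share of all genes doing so in this cluster was not counted. The unnamed cluster 9 also had Cd300e, Eno3 and Treml4 among its leading genes. It held 368 cells against 160 in cluster 18 and is not part of these values. Cluster 4, with Cxcl9 and C1qb among its leading genes, held 18.7 and 33.9 CPM in PD-L1 KO and 24.2 and 33.9 CPM in WT libraries, the lowest of the 4 clusters of this class. Over the whole class Tlr7 stood at 32.6 and 42.9 CPM in PD-L1 KO and at 41.0 and 79.6 CPM in WT libraries (log2 difference -0.60, SE 0.28, edgeR adjusted p = 0.632). Without WT library 1 the difference was -1.0, and without WT library 2 it was -0.11. Cluster 4 held 191 and 197 cells in PD-L1 KO and 122 and 43 cells in WT libraries, and the part of this makeup in the class value of Tlr7 was not tested. Tlr7 summed over all kept cells stood at 26.7 and 29.1 CPM in PD-L1 KO and at 28.7 and 24.5 CPM in WT libraries (log2 difference 0.13, SE 0.15, edgeR adjusted p = 0.819), with the sign turned without WT library 2 (-0.03) and over leukocyte classes alone (-0.02).

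**Figure D3:**
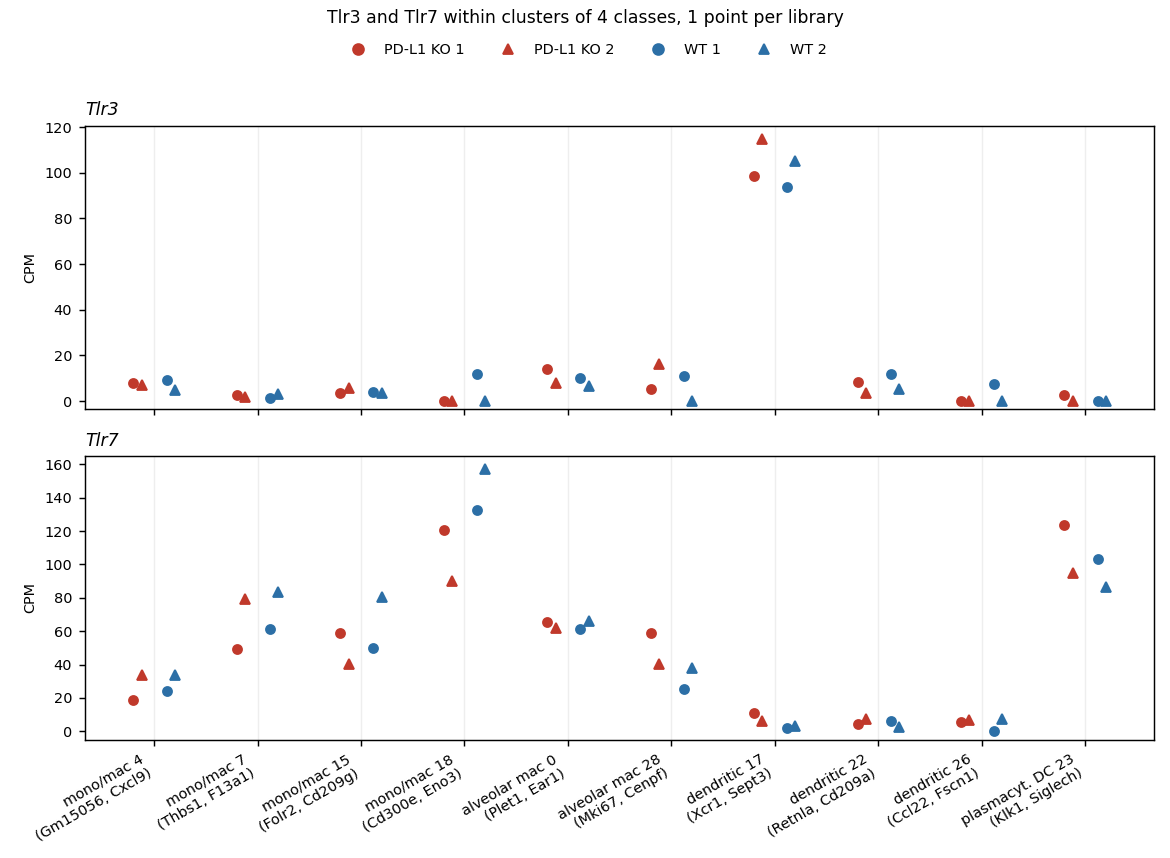
CPM of Tlr3 (upper panel) and Tlr7 (lower panel) on the y axes in the clusters of 4 myeloid classes (x axis, with the leading genes of each cluster), with 1 point per library and PD-L1 KO left of WT. Tlr3 is high in the Xcr1-led dendritic cluster 17, between 93.6 and 114.7 CPM, and near 0 in the dendritic cluster 26; Tlr7 is high in cluster 18 and in plasmacytoid dendritic cells and low in the conventional dendritic clusters.

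Tlr9 (chromosome 9, 106222598 to 106226883, plus strand), the receptor of CpG DNA, was near the limit of detection. It had 8 and 4 UMIs in PD-L1 KO and 5 and 4 UMIs in WT libraries over all kept cells, and did not pass the filter on low counts in any fit. Of these, 14 were in monocyte/macrophages, 3 in B cells, 1 in plasmacytoid dendritic cells and 1 in dendritic cells. Plasmacytoid dendritic cells and B cells, where Tlr9 is best known, thus gave too few molecules at this depth to set an order of classes.

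Zbp1 (chromosome 2, 173206612 to 173218923, minus strand), the sensor of Z-form nucleic acid, had the largest log2 difference of the 9 members tested over all kept cells. It stood at 109.9 and 133.2 CPM in PD-L1 KO and at 73.4 and 49.7 CPM in WT libraries (log2 difference 1.04, SE 0.26, edgeR adjusted p = 0.762), a range of 0.74 to 1.41 with each library left out. Over leukocyte classes alone the difference was 1.06 (SE 0.16, edgeR adjusted p = 0.0787). By class, monocyte/macrophages held the highest mean, 171 CPM ± 58.7 (SD, n = 4), and T cells the next, 113 ± 40.04. Endothelial cells held the lowest, 24.4 ± 11.8, and every class overlapped its neighbour.

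**Figure D4:**
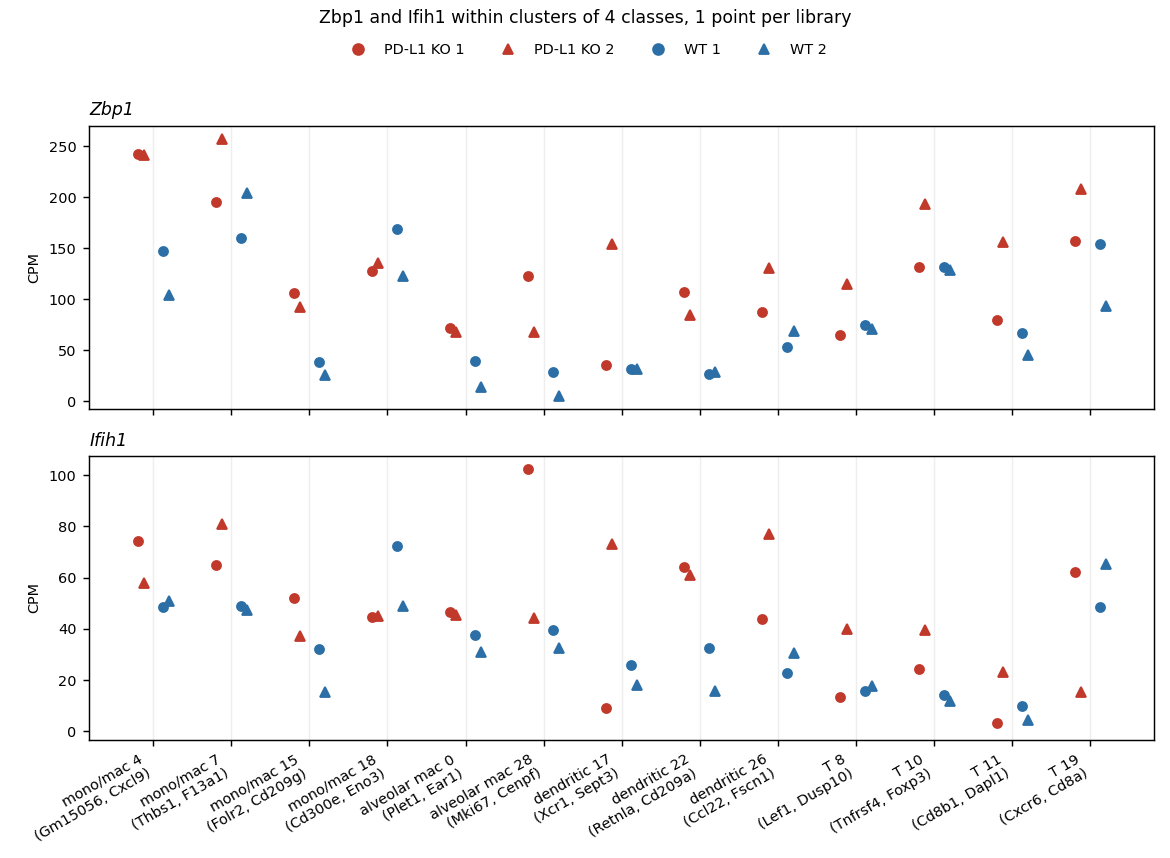
CPM of Zbp1 (upper panel) and Ifih1 (lower panel) on the y axes in the clusters of monocyte/macrophages, alveolar macrophages, dendritic cells and T cells (x axis, with leading genes), with 1 point per library and PD-L1 KO left of WT. For Zbp1 both PD-L1 KO points lie above both WT points in clusters 4 and 15 of monocyte/macrophages and in both alveolar macrophage clusters, and the groups overlap in clusters 7 and 18.

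In monocyte/macrophages Zbp1, Ifih1, Ddx58, Mb21d1 and Mavs, 5 of 9 members tested, lay above in both PD-L1 KO libraries, against 18.9% of the 10499 genes tested, and Tbk1 lay below, as did 24.7% of genes. Zbp1 stood at 213 and 228 CPM in PD-L1 KO and at 136 and 107 CPM in WT libraries (log2 difference 0.89, SE 0.18, edgeR adjusted p = 0.432). Ifih1 stood at 68.9 and 59.3 CPM in PD-L1 KO and at 47.4 and 35.6 CPM in WT libraries (log2 difference 0.65, SE 0.19, edgeR adjusted p = 0.594). The clusters of the class did not all show this. In the Cxcl9 cluster 4 Zbp1 stood at 242.8 and 241.5 CPM in PD-L1 KO and at 147.2 and 104.0 CPM in WT libraries, and in the Folr2 cluster 15 at 106.0 and 91.9 CPM in PD-L1 KO and at 38.0 and 25.9 CPM in WT libraries. In the F13a1 cluster 7 it stood at 195.1 and 257.3 CPM in PD-L1 KO and at 160.4 and 203.8 CPM in WT libraries, and in cluster 18 at 127.2 and 135.1 CPM in PD-L1 KO and at 168.4 and 122.6 CPM in WT libraries, with overlap in both. Cluster 4 held more cells in PD-L1 KO libraries, 191 and 197 against 122 and 43 in WT libraries, and the part of these numbers in the class values was not tested. By edgeR 0 of 9 members and 0% of genes passed, with 3 members and 809 genes at an unadjusted p under 0.05. DESeq2 called Zbp1 (adjusted p = 0.0269), against 0.0857% of genes higher and 0.0762% lower. With each library left out, the differences ran from 0.71 to 1.12 for Zbp1 and from 0.45 to 0.93 for Ifih1. Tlr7, lower in PD-L1 KO, ran from -1.0 to -0.11.

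Alveolar macrophages had 5 of 9 members above in both PD-L1 KO libraries, against 18.6% of the 9767 genes tested, namely Zbp1, Tmem173, Mb21d1, Ddx58 and Ifih1. None lay below in both, against 23.3% of genes. Zbp1 stood at 78.0 and 67.7 CPM in PD-L1 KO and at 38.2 and 12.9 CPM in WT libraries (log2 difference 1.44, SE 0.32, edgeR adjusted p = 0.182). Tmem173 stood at 43.2 and 52.2 CPM in PD-L1 KO and at 34.7 and 26.2 CPM in WT libraries (log2 difference 0.63, SE 0.17, edgeR adjusted p = 0.286). For Mb21d1 the values were 22.1 and 23.8 CPM in PD-L1 KO and 15.5 and 14.6 CPM in WT libraries (log2 difference 0.62, SE 0.19, edgeR adjusted p = 0.346). Ddx58 differed by 0.61 (SE 0.20; 0.99 without WT library 1, 0.37 without WT library 2 and 0.41 without PD-L1 KO library 1) and Ifih1 by 0.53 (SE 0.15), while Tlr7, at 64.9 and 59.7 CPM in PD-L1 KO and 58.5 and 63.9 CPM in WT libraries, overlapped (0.06, SE 0.12). The spread of Zbp1 lay mainly in the WT libraries, and its difference was 2.52 without WT library 1 and 0.96 without WT library 2. Each of these fits keeps 1 WT library, so neither measures the spread between WT libraries. The 13 monocyte/macrophage markers together stood at 660 and 653 CPM in these cells of PD-L1 KO and at 572 and 552 CPM of WT libraries. The 8 B cell markers together stood at 92.7 and 35.5 CPM in PD-L1 KO and at 9.47 and 19.95 CPM in WT libraries, and the part of either list in the differences was not tested. By edgeR 0 of 9 members passed, while 0.0102% of genes passed as higher and 0% as lower; 5 members and 952 genes had an unadjusted p under 0.05, and DESeq2 called 0 members.

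In dendritic cells the differences of Zbp1 and Ifih1 were larger than in macrophages by value, with 4 of 8 members (Zbp1, Ifih1, Tmem173 and Mavs) above in both PD-L1 KO libraries, against 19.2% of the 8046 genes tested. Tlr3 lay below, as did 17.4% of genes. Zbp1 stood at 74.7 and 120 CPM in PD-L1 KO and at 32.9 and 34.9 CPM in WT libraries (log2 difference 1.5, SE 0.26, edgeR adjusted p = 0.168). Ifih1 stood at 38.3 and 68.8 CPM in PD-L1 KO and at 27.8 and 18.7 CPM in WT libraries (log2 difference 1.22, SE 0.34, edgeR adjusted p = 0.483). In the Cd209a cluster 22 Zbp1 stood at 106.9 and 84.1 CPM in PD-L1 KO and at 26.7 and 29.0 CPM in WT libraries, whereas in the Xcr1 cluster 17 PD-L1 KO library 2, at 154.3 CPM, stood far above the other PD-L1 KO library (35.8) and the WT libraries (31.9 and 31.5). Ifih1 likewise stood at 9.0 and 73.0 CPM in cluster 17 of PD-L1 KO and at 25.9 and 18.02 CPM of WT libraries. Tmem173 stood at 74.7 and 59.8 CPM in PD-L1 KO and at 52.4 and 37.4 CPM in WT libraries (log2 difference 0.57, SE 0.24, edgeR adjusted p = 0.692), a difference of 0.33 without WT library 2. The 10 neutrophil markers together stood at 2369 and 4076 CPM in dendritic cells of PD-L1 KO and at 1356 and 2446 CPM of WT libraries, and their part was not tested. By edgeR 0 of 8 members and 0% of genes passed, with 3 members and 564 genes at an unadjusted p under 0.05. DESeq2 called Zbp1 (adjusted p = 0.0475), against 0.186% of genes higher and 0% lower. With each library left out, the differences ran from 1.12 to 1.79 for Zbp1 and from 0.72 to 1.55 for Ifih1. The lowest for Ifih1 came without PD-L1 KO library 2, and the highest of both without PD-L1 KO library 1.

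Among lymphocytes the values of Ifih1 in NK cells differed most. NK cells held 14 and 13 UMIs of Ifih1 in PD-L1 KO and 5 and 3 UMIs in WT libraries, or 37.4 and 38.7 CPM in PD-L1 KO and 8.21 and 7.19 CPM in WT libraries (log2 difference 2.25, SE 0.58, edgeR adjusted p = 0.190). In PD-L1 KO library 1, 10 of the 14 UMIs came from 1 cell, so this value rests on few cells. The difference was 2.19 to 2.33 with each library left out, and never passed in those settings. Zbp1 in NK cells stood at 80.2 and 116 CPM in PD-L1 KO and at 60.8 and 62.3 CPM in WT libraries (log2 difference 0.67, SE 0.26, edgeR adjusted p = 0.666), a difference of 0.36 without PD-L1 KO library 2. The 10 alveolar macrophage markers together stood at 29.4 and 38.7 CPM in NK cells of PD-L1 KO and at 9.86 and 7.19 CPM of WT libraries, and their part was not tested. With Ddx58, 3 of 5 members tested lay above in NK cells, against 17.4% of 5252 genes, and 0 lay below, against 17.5%. In T cells Zbp1, Ifih1 and Mavs, 3 of 6, lay above, against 20.6% of 8083 genes, and 0 lay below, against 18.1%. Zbp1 stood at 106 and 169 CPM in T cells of PD-L1 KO and at 101 and 74.8 CPM of WT libraries (log2 difference 0.59, SE 0.21, edgeR adjusted p = 0.496). This difference was 0.92 without PD-L1 KO library 1 and 0.25 without PD-L1 KO library 2. The 13 monocyte/macrophage markers together stood at 462 and 426 CPM in T cells of PD-L1 KO and at 416 and 219 CPM of WT libraries, and their part was not tested. Ifih1 stood at 25.1 and 32.4 CPM in T cells of PD-L1 KO and at 20.5 and 16.1 CPM of WT libraries (log2 difference 0.59, SE 0.29, edgeR adjusted p = 0.650). Among T cell clusters the Cxcr6 and Pdcd1 cluster 19 had lower Tmem173 values in PD-L1 KO, at 23.7 and 23.2 CPM in PD-L1 KO and 65.0 and 55.8 CPM in WT libraries, from 33 UMIs in all, a cluster singled out after its values were seen. By edgeR 0 members passed in NK or T cells, while 0.209% and 0.124% of genes passed as higher and 0% as lower; 2 of 5 members and 326 genes in NK cells and 1 of 6 members and 624 genes in T cells had an unadjusted p under 0.05, and DESeq2 called 0 in either.

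B cells, neutrophils and endothelial cells had no member above in both PD-L1 KO libraries, against 16%, 14% and 17.8% of genes. Tbk1 lay below in both PD-L1 KO libraries in each of the 3 classes, as did 15.1% of genes in B cells, 25.4% in neutrophils and 18.3% in endothelial cells. Ddx58 in neutrophils, its highest class, stood at 66.5 and 62.5 CPM in PD-L1 KO and at 64.0 and 68.7 CPM in WT libraries (log2 difference 0.05, SE 0.23, edgeR adjusted p = 0.980), where the mean CPM was lower in PD-L1 KO and the TMM-scaled difference was above 0. Zbp1 in neutrophils stood at 68.1 and 88.0 CPM in PD-L1 KO and at 54.8 and 70.7 CPM in WT libraries (log2 difference 0.44, SE 0.25, edgeR adjusted p = 0.799), a difference of 0.24 without PD-L1 KO library 2. Ifih1 in endothelial cells, at 51.8 and 52.9 CPM in PD-L1 KO and 56.6 and 45.9 CPM in WT libraries, differed by 0.05 (SE 0.26, edgeR adjusted p = 0.988). By edgeR 0 of 4 members in B cells, 0 of 4 in neutrophils and 0 of 6 in endothelial cells passed, and 0 had an unadjusted p under 0.05 with either edgeR or DESeq2. The share of all genes called was 0% in B cells in either direction, 0.064% higher and 0.0853% lower in neutrophils, and 0.0541% higher and 0.0405% lower in endothelial cells.

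Whether the group difference varied between classes was tested in 1 fit over all class sums, with 10956 genes. No member passed (0 of 9, against 0.0365% of genes), and 624 genes had an unadjusted p under 0.05, among them 2 members, Ifih1 (edgeR adjusted p = 0.795) and Zbp1 (edgeR adjusted p = 0.797). The larger values of Zbp1 in dendritic cells and alveolar macrophages than in neutrophils or B cells are therefore not shown to differ between classes.

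Other genes of these pathways were read from a list of 38, of which 37 could be tested over all kept cells. By edgeR 0 passed in any of the 9 fits at the main settings, while DESeq2 called 1 in monocyte/macrophages. With no filter on low counts edgeR called 3 as higher in alveolar macrophages, against 1.83% of genes. It likewise called 3 in monocyte/macrophages, against 1.05%, and 1 in dendritic cells, against 0.854%. In the test between classes with no such filter, Irf7 was among 294 of 19200 genes that passed. With cells gated one by one, 1 passed in alveolar macrophages, against 0.611% of genes higher. Without WT library 1 the median log2 difference of the list was 0.12 in monocyte/macrophages and 0.21 in alveolar macrophages. With all libraries these medians were 0.098 and 0.16. In dendritic cells the median was 0.18 without WT library 1 against 0.089 with all libraries, and in T cells 0.042 against 0.094. Over all kept cells 18 of 37 lay above in both PD-L1 KO libraries, against 15.2% of all genes, and 2, Irf3 and Traf3, lay below, against 26.2%. Their median log2 difference was 0.22, against -0.02 over all genes, and it was 0.41 without WT library 1, 0.085 without WT library 2 and 0.13 over leukocyte classes alone. The 5 with the smallest p were Eif2ak2, the RNA-activated kinase PKR (0.69, SE 0.11), Irf7, the interferon-induced partner of IRF3 (0.98, SE 0.24), Dhx58, the RIG-I-like helicase LGP2 (0.84), Irf5 (0.46) and Rnaseh2b, a subunit of the nuclease that removes RNA from DNA (0.32). All 5 had an edgeR adjusted p of 0.762. The products of the pathway were not seen: Ifnb1 and 11 other type I and type III interferon genes had 0 UMIs in all kept cells of each of the 4 libraries, which allows up to 3 UMIs in each.

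Across the 10 classes, the genes whose order of levels was most like that of each member were ranked by Spearman's rho over 9813 genes, on class means that share the same 4 libraries. For Mb21d1 they were Prkx (rho 1.00) and Chmp1a (0.976), and for Mavs they were Hccs (0.976) and Prrc2a (0.964). Tmem173 was most like Atp5c1 (0.964) and Vrk2 (0.952), and Tbk1 most like Srd5a3 (0.952) and Slc23a2 (0.939). The order of Ddx58 was closest to that of Fam53c (0.939) and Ice1 (0.903), and the order of Ifih1 to that of Ttyh3 (0.939) and Il18bp (0.927), an inhibitor of interleukin 18. Tlr3 paired with Sgsm3 (0.936) and Cd36 (0.930), a fatty acid and scavenger receptor with its highest level in endothelial cells. Tlr7 paired with Slpi (0.952), a protease inhibitor that was highest in plasmacytoid dendritic cells, and Kcnn3 (0.944). Zbp1 had the least close neighbours, Eno1 (0.903), a glycolytic enzyme, and Socs1 (0.891), the inhibitor of cytokine receptor signalling. With 10 classes and this many genes some close orders arise among any genes, so these are a description.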

How the data were processed

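The authors deposited raw UMI counts for each gene in each barcode of 4 libraries (Chromium 3′ chemistry, version 3). Per the submitters' processing notes, mapping used STAR within Cell Ranger 3.1.0 on mm10, with an annotation release not given in the sources used here. Barcodes with fewer than 200 genes or over 10% mitochondrial UMIs (1126) and the 216 with the highest Scrublet scores (2.08% of all) were left out. At most 3 barcodes were shared by a pair of libraries. Cells were clustered with scanpy 1.11.5 and leidenalg 0.10.2 (2000 variable genes without interferon-response genes or the members, 30 components, 15 neighbours, resolution 1), giving 32 clusters. Clusters were named from marker lists when at least 3 markers were detected in 25% of cells their level was at least 0.2, and no second lineage that also had 3 detected markers reached a level of 0.1 and 0.33 times the first; these limits were revised after the clusters were seen, and 11 clusters stayed unnamed. Classes are therefore rebuilt names, each to be read as cells like that type.

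Sums of counts were formed in each library for all kept cells together and for 8 classes of 20 cells or more per library. They were tested with edgeR 4.0.16 (R 4.3.3; filterByExpr, TMM, quasi-likelihood test) at a Benjamini-Hochberg adjusted p of 0.05 over all genes, and log2 differences are PD-L1 KO minus WT. The steps were tested on simulated data. DESeq2 1.42.0, RLE size factors, no filter on low counts, the replicate number as a block, each library left out, cells gated one by one, doublets kept and leukocyte classes alone were the alternatives. Floors of 3 counts cover counting error only. All 10 members are named for the sum over all kept cells. Within classes, the members whose groups did not overlap are named, and others where their values are given. Of the pathway list, the 5 with the smallest p over all kept cells and the 2 that lay below there are named. The gene of that list called by DESeq2 in monocyte/macrophages is not. For likeness, the 2 genes with the highest rho among those with at least 20 CPM in some class are named. The members and lists were chosen with earlier results of these data known.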

Additional observations from a re-analysis of the deposited data

How the results depend on the processing

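Across 30 log2 differences of members and 330 values under other settings, 292 kept their direction and side of the threshold, 30 came to pass it, 0 lost it and 8 reversed. The 30 were the differences over all kept cells and, within classes, those of at least 0.4 in size, out of 60 tested. Smaller class differences were left out, so their changes of sign are not in these counts. In endothelial cells, for example, 4 of 6 members were positive with all libraries and 2 of 6 without WT library 2. The 8 counted as reversed were small differences over all kept cells. Over leukocyte classes alone Tlr3 was -0.020 and Tlr7 -0.018. With each library left out, Mavs ran from -0.18 to 0.012 (positive without PD-L1 KO library 1), Tbk1 from -0.14 to 0.038 (positive without PD-L1 KO library 2 or WT library 1), Tlr3 from -0.16 to 0.23 (negative without PD-L1 KO library 1 or WT library 1) and Tlr7 from -0.028 to 0.30 (negative without WT library 2). The cause of these changes, and of those below, was not tested. A fit without 1 library keeps 1 library in 1 group, so its p-values measure no spread within that group. With each library left out, genes past the threshold numbered 0 to 2020 over all kept cells, 9 to 35 in B cells, 0 to 21 in NK, 0 to 163 in T, 19 to 123 in alveolar macrophages, 10 to 58 in dendritic, 25 to 75 in endothelial, 0 to 464 in monocyte/macrophages, 0 to 42 in neutrophils and 21 to 141 for the class-by-group term. Members past it in these fits are not counted here, and their median log2 differences are given instead. Over all kept cells the median was 0.35 without WT library 1 and 0.23 without WT library 2, against 0.32 with all libraries. In monocyte/macrophages it was 0.42 without WT library 1 and 0.21 without WT library 2, against 0.23 with all libraries. DESeq2 called 13 genes over all kept cells, 0 in NK, 0 in T, 26 in alveolar macrophages, 15 in dendritic, 3 in endothelial, 17 in monocyte/macrophages and 4 in neutrophils, with 1 member each in dendritic cells and monocyte/macrophages. Over leukocyte classes alone, edgeR called 4 genes. Without the filter on low counts it called 18 genes in B, 34 in NK (1 member), 0 in T, 345 in alveolar macrophages (4 members), 168 in dendritic (2 members), 77 in endothelial, 291 in monocyte/macrophages (2 members), 69 in neutrophils and 294 for the class-by-group term (1 member, Zbp1). With doublets kept it called 1 gene in B, 29 in NK, 15 in alveolar macrophages and 0 in endothelial cells. With cells gated one by one it called 0 in T, 60 in alveolar macrophages (1 member, Zbp1), 1 in dendritic, 0 in endothelial and 0 in neutrophils. Same-numbered libraries did not deviate together (correlations of -0.305 to 0.044). With 2 libraries per group this cannot exclude that equal numbers share a day or a batch, which the labels do not say. The replicate block gave 5 genes in B, 28 in NK, 15 in alveolar macrophages, 1 in dendritic, 39 in endothelial and 30 in monocyte/macrophages. The crossed replicate block, chosen after seeing the data, gave 17 in B, 38 in NK (1 member), 67 in T, 117 in alveolar macrophages (1 member), 203 in dendritic (2 members), 33 in monocyte/macrophages (1 member) and 75 in neutrophils. For levels, cells gated one by one gave 62.2 CPM of Tlr3 in dendritic and 121 CPM of Tlr7 in plasmacytoid dendritic cells, and put NK cells at rank 3 for Mb21d1 and B cells at rank 3 for Tlr9. Cells thinned to 2000 UMIs put NK cells at rank 4 for Mb21d1, neutrophils at rank 4 for Ddx58, monocyte/macrophages at rank 2 for Ifih1 and B cells at rank 2 for Tlr9. Tlr9 was tested in no fit that had the filter on low counts.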
